A study of Mus musculus with 12 samples.

Results

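Homeostatic microglia are described here through 9 genes, P2ry12, P2ry13, Gpr34, Cx3cr1, Csf1r, Tmem119, Siglech, Selplg and Olfml3, a list named with earlier results of these data known, though its rule uses no measured value. All 9 were measured among 14881 genes, with 291 to 2550 reads per library. The 12 libraries came from 12 male mice, 22 to 26 months old, labelled APPswe, the name of a line transgenic for amyloid precursor protein with the Swedish mutation. Every mouse had received 5 µL of an adeno-associated virus into the cerebrospinal fluid of the cisterna magna and weekly intraperitoneal doses of an antibody at 40 mg/kg. The 4 groups of 3 mice were AAV1-CMV-mVEGF-C with mAducanumab (mVEGF-C+mAdu, mice 10 to 12), AAV1-CMV-mVEGF-C with mIgG (mVEGF-C+mIgG, mice 7 to 9), AAV1-CMV-eGFP with mAducanumab (eGFP+mAdu, mice 4 to 6) and AAV1-CMV-eGFP with mIgG (eGFP+mIgG, mice 1 to 3). mVEGF-C is mouse vascular endothelial growth factor C, a growth factor of lymphatic vessels, eGFP is a fluorescent control protein, mAducanumab binds aggregated amyloid beta and mIgG is its control antibody. The CMV promoter is active in many cell types, so the vector is not limited to 1 kind of cell. All 12 mice are labelled as this line, though App levels put 1 label in doubt (below), and all received a vector, so no untreated or non-transgenic group was compared.

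Microglia are the resident macrophages of the brain parenchyma. In the undisturbed brain they survey their surroundings with moving processes and hold a gene programme that depends on transforming growth factor beta and on signals through the CSF1 receptor. The 9 genes belong to that homeostatic programme, and in mouse models of amyloid deposition several of them are known to decline in microglia that gather at plaques and take up the disease-associated state. In RNA of a whole tissue, fewer microglia and less of a transcript per microglial cell cannot be told apart, so every level below is a level per tissue RNA.

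The promoters of the adjoining P2ry12 and P2ry13 genes and of Olfml3, the 1 gene of the 9 that passed a test below, are shown as the 250 bases before the RefSeq gene start (GRCm38.p6, minus strand, 5′ to 3′). They are chr3:59262986-59263235 for P2ry12, chr3:59210883-59211132 for P2ry13 and chr3:103738002-103738251 for Olfml3. Capitals mark GGAAGT, the core letters bound by ETS factors such as PU.1, which microglia require.
P2ry12: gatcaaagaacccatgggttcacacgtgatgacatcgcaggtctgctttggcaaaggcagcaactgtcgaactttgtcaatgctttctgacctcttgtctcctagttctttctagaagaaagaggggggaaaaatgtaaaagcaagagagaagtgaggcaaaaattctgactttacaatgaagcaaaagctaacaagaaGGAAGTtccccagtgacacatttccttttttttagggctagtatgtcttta
P2ry13: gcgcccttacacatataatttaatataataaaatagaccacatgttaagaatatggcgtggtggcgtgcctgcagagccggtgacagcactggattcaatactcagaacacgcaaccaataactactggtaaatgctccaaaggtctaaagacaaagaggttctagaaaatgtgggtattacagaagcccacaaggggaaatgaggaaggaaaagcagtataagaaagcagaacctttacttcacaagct
Olfml3: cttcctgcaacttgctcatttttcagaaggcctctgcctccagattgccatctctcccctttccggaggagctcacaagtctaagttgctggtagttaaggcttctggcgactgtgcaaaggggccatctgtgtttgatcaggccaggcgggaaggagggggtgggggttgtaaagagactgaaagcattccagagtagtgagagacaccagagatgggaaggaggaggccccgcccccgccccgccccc
RefSeq windows were matched for 5 of the 9 genes, these 3 with Cx3cr1 and Siglech. GGAAGT, searched on both strands, was found in 2 of the 5, in P2ry12 at 46 to 51 bases before the start on the coding strand and in Siglech at 151 to 156 bases on the opposite strand. Of 32851 such windows of mouse genes, 19.7% held it. GAGGAAGT, a longer PU.1 site that contains GGAAGT, was found in 0 of the 5 windows and in 2.44% of all. A match describes letters only, and no match says nothing of the factor.

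The 9 genes lie on 6 chromosomes of the mouse genome (coordinates of GENCODE M21 on GRCm38, mm10), and 2 pairs are neighbours. P2ry13 (chr3:59207892-59210882) and P2ry12 (chr3:59216272-59262871) lie 5390 bases apart on the minus strand, both inside Med12l, which runs on the opposite strand. Tmem119 (chr5:113793729-113800516) and Selplg (chr5:113818536-113832644) lie 18020 bases apart on the minus strand. Olfml3 occupies chr3:103722222-103738001 and Cx3cr1 chr9:119901616-120069879, both on the minus strand. Siglech (chr7:55768178-55778925), Gpr34 (chrX:13632089-13640858) and Csf1r (chr18:61100598-61132149) run on the plus strand, with Gpr34 inside the opposite-strand gene Cask. Csf1r shares 873 exonic bases with Hmgxb3 on the other strand, Cx3cr1 shares 78 with Gm33858 and P2ry12 shares 9 with Med12l. The sources used here do not say whether counting used strand, and reads in those shared bases cannot be assigned to 1 gene. Hmgxb3 had 61.0 to 68.5 CPM over the 12 libraries and differed by 0.03 on the log2 scale between mVEGF-C+mAdu and mVEGF-C+mIgG, the comparison in which Csf1r is described below.

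The libraries held 23213612 to 29295266 counted reads. By the series text the tissue was the right hippocampus, but the source label says meninges. Markers of hippocampal neurons were measured for 8 of 8 listed genes and summed to 718 to 869 CPM (reads of a gene per 1000000 reads of a library, with totals scaled by TMM), so hippocampal RNA was present in every library. Of 10 listed border-associated macrophage genes 4 were measured, with Mrc1 at 2.98 to 6.13 CPM and Cd163 at 0.278 to 1.45 CPM, and of 11 blood leukocyte genes only S100a9 was, at 0.446 to 1.23 CPM. One library per group held the middle value of its group in most genes whose spread exceeded counting error, namely in 94.8% of 406 such genes in mouse 12, 86.7% of 1341 in mouse 9, 88.4% of 733 in mouse 6 and 88.8% of 626 in mouse 3. Among the 9 microglial genes, the same libraries held the middle value in 19 of 36 cases of gene and group. A share of 33.3% is what each of 3 libraries would hold if none stood apart, so whether the 3 libraries of a group are independent is in doubt. Calls and non-overlap counts of the 9 genes are also given without these 4 libraries. Most single-gene values are given for all 12 only. App read 1342 CPM in the library of mouse 5, labelled eGFP+mAdu, and 3716 CPM in that of mouse 6, of the same group. Mouse 4 of that group had 5487 CPM, so mouse 6 also held the middle value for App. The 10 libraries other than those of mice 5 and 6 had 4721 to 5507 CPM, so the strain label of mouse 5 in particular is in doubt. Values without mouse 5 are given for several of the differences it set. Mouse 6 stayed in those fits, and no fit left out both. An unnamed gene, ENSMUSG00000045999, took 8.59%, 8.51% and 2.44% of the reads in the eGFP+mIgG mice and at most 0.105% elsewhere.

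Levels were divided by the joined length of all annotated exons of a gene, which can exceed the length of its transcripts. Per kilobase of that length, the 9 genes were in the order P2ry12, Cx3cr1, Csf1r, Tmem119, Gpr34, P2ry13, Siglech, Selplg and Olfml3 over the 12 libraries. Olfml3 came last with 6161 bases, though its median of 24.8 CPM was above the 22.6 CPM of Tmem119 (2315 bases). The effect of linear amplification of the RNA on this order was not tested. The median CPM per kilobase was 19.4 for P2ry12, 16.0 for Cx3cr1, 15.0 for Csf1r and 9.76 for Tmem119. It was 8.93 for Gpr34, 5.72 for P2ry13, 5.53 for Siglech, 5.09 for Selplg and 4.03 for Olfml3. P2ry12 stood above Cx3cr1 in 12 of 12 libraries and Csf1r above Tmem119 in 12 of 12, so these steps exceeded the spread. P2ry13 and Siglech, with 7 of 12, and Tmem119 and Gpr34, with 9 of 12, did not differ beyond their spread. By total CPM without regard to length, the 9 genes ranked between the 40.5th percentile (P2ry13) and the 82.2nd percentile (Csf1r) of the 14881 genes. The coefficient of variation over the 12 libraries was 4.58% for P2ry12 and 4.69% for Csf1r, beside 2.79% and 2.11% from counting reads alone. It was larger for Tmem119 at 14.1%, Olfml3 at 11.2% and Selplg at 10.4%, where counting alone gives 4.17%, 4.01% and 4.15%.

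**Figure D1:**
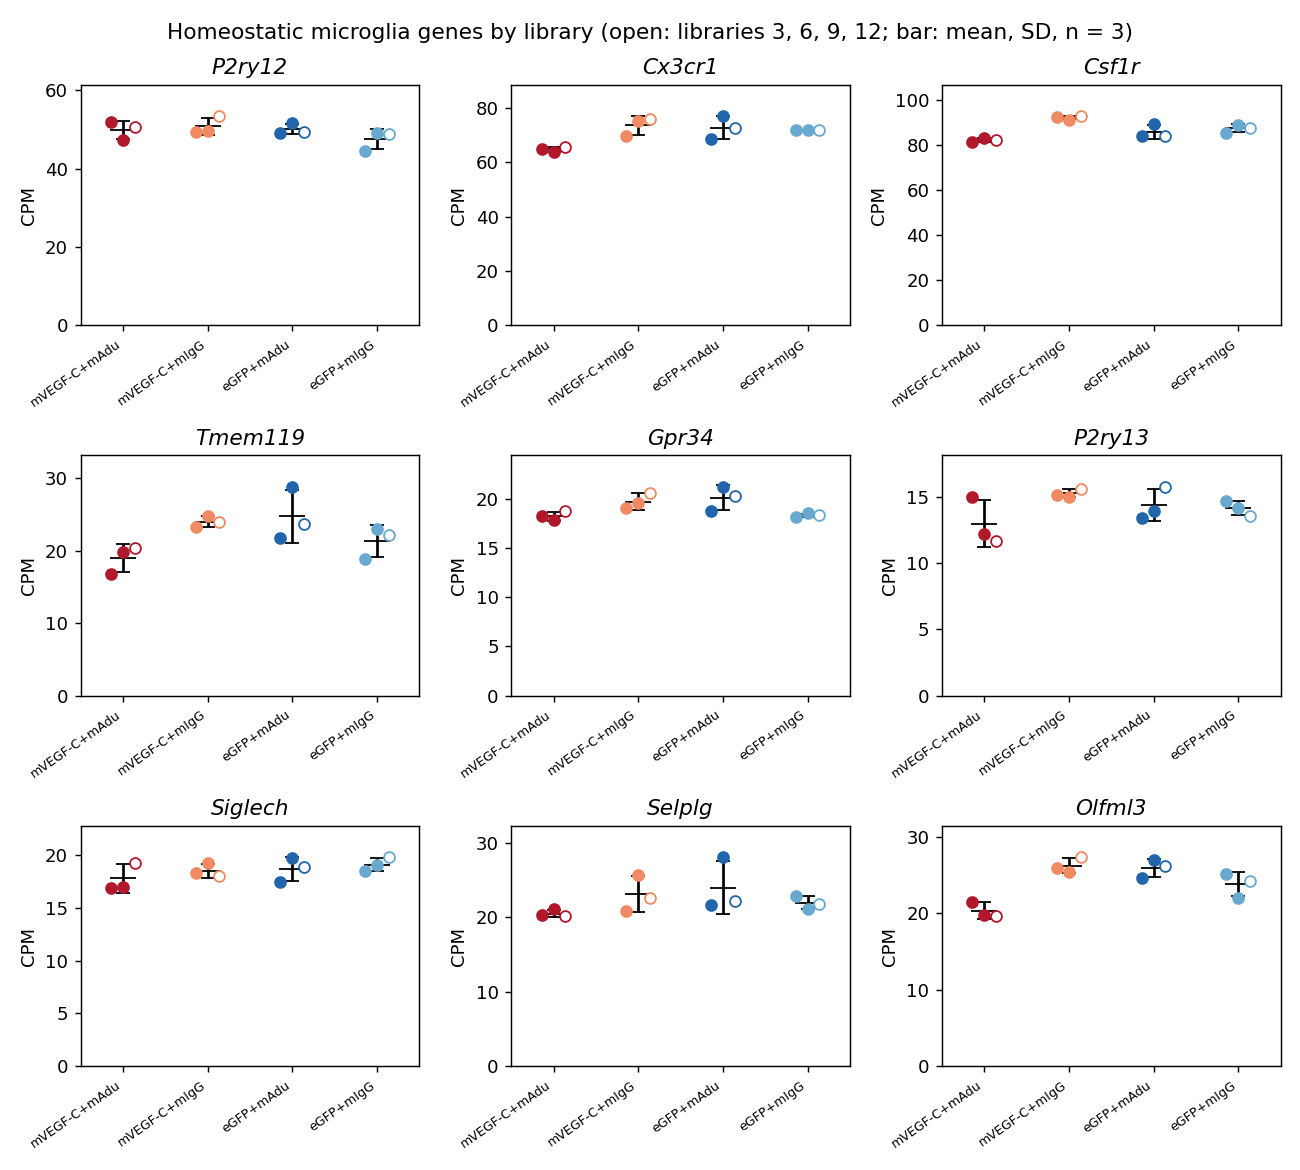
Level of each gene in CPM (vertical axes, starting at 0) in the 12 libraries, with the groups mVEGF-C+mAdu, mVEGF-C+mIgG, eGFP+mAdu and eGFP+mIgG from left to right. Points are mice, open points are mice 3, 6, 9 and 12, and bars give mean and SD (n = 3); the 3 mVEGF-C+mAdu mice are below all 9 other mice for Olfml3, Cx3cr1 and Csf1r.

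The plot of levels by library shows that mVEGF-C+mAdu hippocampi held the lowest value of 8 of the 9 genes, spread over all 3 mice of the group. Mouse 10 was lowest for 3 genes, mouse 11 for 2 and mouse 12 for 3, and the remaining gene, P2ry12, was lowest in mouse 1 of eGFP+mIgG. The highest value was in mouse 5 of eGFP+mAdu for 4 genes and in mouse 9 of mVEGF-C+mIgG for 3. Summed over the 9 genes, levels were 302 to 308 CPM in mVEGF-C+mAdu, 334 to 350 CPM in mVEGF-C+mIgG, 319 to 357 CPM in eGFP+mAdu and 320 to 328 CPM in eGFP+mIgG. The mVEGF-C+mAdu sums were below those of the other groups in every mouse.

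Olfml3 fell under mAdu in mice that carried mVEGF-C. Olfml3 encodes a secreted olfactomedin-like glycoprotein that in the brain is made mainly by microglia, and in other tissues also by vascular cells. It stood at 21.5, 19.7 and 19.6 CPM in mVEGF-C+mAdu, against 25.9, 25.4 and 27.3 CPM in mVEGF-C+mIgG. The groups did not overlap, and the means were 20.3 ± 1.09 and 26.2 ± 0.979 CPM (SD, n = 3 each). The difference was -0.37 on the log2 scale (SE 0.064, 95% interval -0.51 to -0.24) with an adjusted p of 0.0299 in edgeR's quasi-likelihood test, Benjamini-Hochberg adjusted over all 14881 genes. It was 1 of 9 genes past the adjusted threshold of 0.05 in that direction, where 0.141% of all genes were called lower and 0.0672% higher. Without mice 3, 6, 9 and 12 the difference was -0.32 (SE 0.0934) and the call was lost, with an adjusted p of 0.997 in edgeR's quasi-likelihood test. The call was also lost with mice 3, 6, 9, 10, 11 or 12 left out singly, at adjusted p of 0.0619, 0.0626, 0.173, 0.0768, 0.0924 and 0.187, with differences over all such fits from -0.42 to -0.34.

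The receptors differed by less in this comparison, and none of them passed. Csf1r, the receptor kinase for CSF1 and IL-34 on which microglia depend for survival, had 81.6, 83.1 and 82.2 CPM in mVEGF-C+mAdu, against 92.6, 91.3 and 92.9 CPM in mVEGF-C+mIgG. Cx3cr1, the receptor of the neuronal chemokine fractalkine, had 65.1, 63.9 and 65.7 CPM in mVEGF-C+mAdu, against 69.8, 75.1 and 76.0 CPM in mVEGF-C+mIgG. Both genes were lower in all 3 mVEGF-C+mAdu mice without overlap. The log2 differences were -0.17 for Csf1r (SE 0.0367) and -0.18 for Cx3cr1 (SE 0.0459), with adjusted p of 0.0732 and 0.108 in edgeR's quasi-likelihood test. Gpr34, a receptor for lysophosphatidylserine, had 18.2, 17.8 and 18.7 CPM in mVEGF-C+mAdu, against 19.0, 19.6 and 20.6 CPM in mVEGF-C+mIgG. That gave a log2 difference of -0.11 (SE 0.061) with no overlap between the groups.

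The adjoining ADP receptors differed in pattern. P2ry12, through which microglial processes are drawn to injured cells, had 51.9, 47.3 and 50.6 CPM in mVEGF-C+mAdu, against 49.3, 49.7 and 53.4 CPM in mVEGF-C+mIgG. The values were interleaved, and the log2 difference was -0.03 with a 95% interval of -0.14 to 0.09. P2ry13, a second ADP receptor of microglia, had 15.0, 12.2 and 11.7 CPM in mVEGF-C+mAdu, against 15.2, 15.0 and 15.6 CPM in mVEGF-C+mIgG. The groups overlapped at mouse 10, and the log2 difference of -0.23 (SE 0.0896) had an adjusted p of 0.279 in edgeR's quasi-likelihood test.

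Of the surface proteins, Tmem119, a membrane protein that sets microglia apart from other brain macrophages, had the widest spread. It stood at 16.7, 19.8 and 20.3 CPM in mVEGF-C+mAdu, against 23.2, 24.7 and 24.0 CPM in mVEGF-C+mIgG, with no overlap. The log2 difference was -0.34 (SE 0.103, 95% interval -0.56 to -0.12) with an adjusted p of 0.18 in edgeR's quasi-likelihood test. Selplg, the P-selectin ligand of leukocytes and microglia, had 20.3, 21.1 and 20.2 CPM in mVEGF-C+mAdu, against 20.9, 25.7 and 22.6 CPM in mVEGF-C+mIgG, a log2 difference of -0.17 (SE 0.093). Siglech, a sialic acid binding lectin that signals through DAP12, had 16.9, 17.0 and 19.3 CPM in mVEGF-C+mAdu, against 18.3, 19.3 and 18.0 CPM in mVEGF-C+mIgG. Its log2 difference was -0.06 with a 95% interval of -0.21 to 0.09, and the groups overlapped at mouse 12.

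Over the list, all 9 log2 differences between mVEGF-C+mAdu and mVEGF-C+mIgG were below 0, with a median of -0.17, where 49.5% of all genes were below 0. In 5 of the 9 genes (Csf1r, Cx3cr1, Gpr34, Olfml3 and Tmem119) the 3 mVEGF-C+mAdu values all lay under the 3 mVEGF-C+mIgG values, as they did in 8.12% of all genes. At an unadjusted p under 0.05, 5 of the 9 were counted, beside 12.7% of all genes. With mice 3, 6, 9 and 12 left out the median was -0.16 with 8 of 9 below 0, no gene passed, and 6 of the 9 did not overlap, beside 15.2% of all genes. The 9 genes share RNA of the same mice and are not replicates of the condition.

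**Figure D2:**
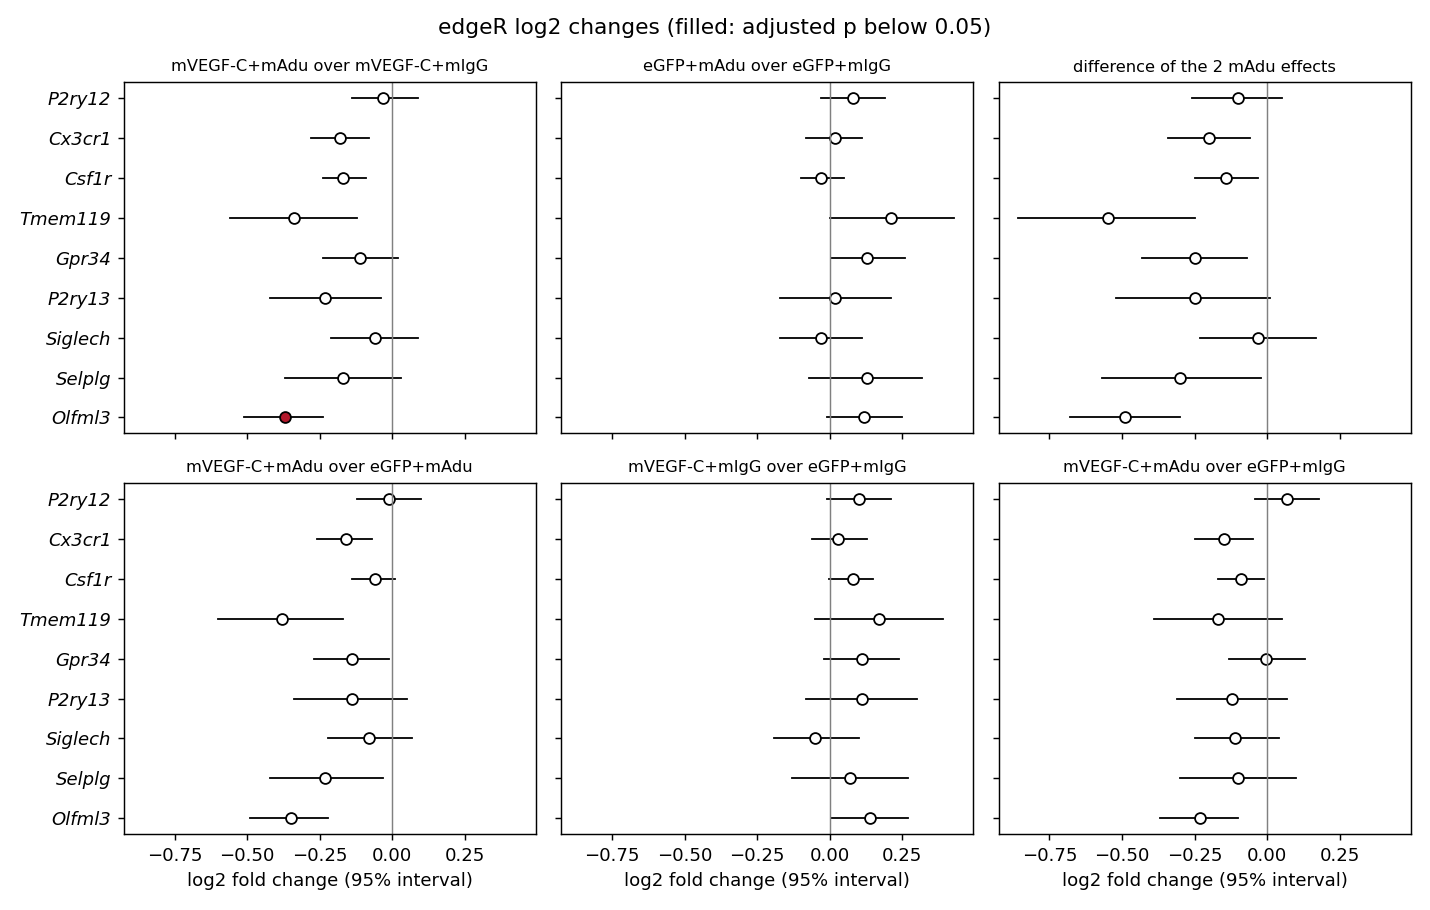
Log2 difference of each gene with its 95% interval (horizontal axis) in the 6 comparisons, from edgeR; a filled point passed the adjusted threshold of 0.05. The filled point is Olfml3 in mVEGF-C+mAdu over mVEGF-C+mIgG at -0.37, and all 9 genes are left of 0 there, in mVEGF-C+mAdu over eGFP+mAdu and in the interaction.

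The mVEGF-C vector was compared within mice given mAdu, which uses the same mVEGF-C+mAdu libraries, so the values are not independent of those above. No gene passed, where 0.0202% of all genes were called lower and 0.0269% higher, and 5 of the 9 had an unadjusted p under 0.05, beside 14.3% of all genes. All 9 log2 differences were below 0, where 49.6% of all genes were. Olfml3 had 21.5, 19.7 and 19.6 CPM in mVEGF-C+mAdu, against 24.6, 26.9 and 26.1 CPM in eGFP+mAdu, a log2 difference of -0.35 (SE 0.0638) and an adjusted p of 0.0556 in edgeR's quasi-likelihood test. Tmem119 had 16.7, 19.8 and 20.3 CPM in mVEGF-C+mAdu, against 21.7, 28.8 and 23.7 CPM in eGFP+mAdu, a log2 difference of -0.38 (SE 0.102). Mouse 5 set the upper end of that group, and without it Tmem119 differed by -0.26 and Olfml3 by -0.32. Selplg differed by -0.23 (SE 0.0922), and by -0.10 without mouse 5. Csf1r, Cx3cr1, Olfml3, Selplg and Tmem119 were lower in mVEGF-C+mAdu with no overlap, 5 of 9 beside 10.2% of all genes. P2ry12 differed by -0.01, with a 95% interval of -0.12 to 0.10. Of the 9 genes in the fit that left out mice 3, 6, 9 and 12, 7 did not overlap, beside 18.9% of all genes, and Olfml3 differed by -0.33 with an adjusted p of 0.876 in edgeR's quasi-likelihood test.

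Under the eGFP control vector, most of the 9 genes stood slightly higher with mAdu and none passed. Of the 9 log2 differences 7 were above 0, where 49.2% of all genes were, and 2 below, with a median log2 difference of 0.08, and adjusted p ran from 0.518 to 0.965 in edgeR's quasi-likelihood test. Over all genes 0.0134% were called lower and 0.0202% higher, and 2 of the 9 had an unadjusted p under 0.05, beside 9.21% of all genes. Tmem119 had 21.7, 28.8 and 23.7 CPM in eGFP+mAdu, against 18.8, 23.0 and 22.2 CPM in eGFP+mIgG, a log2 difference of 0.21 (SE 0.101). Gpr34 had 18.7, 21.2 and 20.3 CPM in eGFP+mAdu, against 18.1, 18.5 and 18.3 CPM in eGFP+mIgG. Gpr34 was the 1 gene of the 9 whose groups did not overlap, with a log2 difference of 0.13, and 7.63% of all genes were higher without overlap. Olfml3 averaged 25.9 ± 1.16 CPM in eGFP+mAdu and 23.8 ± 1.59 CPM in eGFP+mIgG (SD, n = 3 each), a log2 difference of 0.12 (SE 0.0626). Mouse 5, the library with low App, was the highest of all 12 for Tmem119, Cx3cr1, Selplg and Gpr34. Without it Tmem119 differed by 0.09, Gpr34 by 0.09, Selplg by -0.0035 and Cx3cr1 by -0.03, so these last 2 changed sign. Siglech differed by -0.03 and Csf1r by -0.03. In the 8 libraries other than mice 3, 6, 9 and 12 the median was 0.11, 6 of the 9 differences were above 0, and 1 gene was higher and 1 lower without overlap, beside 15.0% and 15.4% of all genes.

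With mIgG, the mVEGF-C vector gave 8 log2 differences above 0 and 1 below, with a median of 0.10, where 50.2% of all genes were above 0. No member passed, where 0.0134% of all genes were called lower and 0.0269% higher, and 1 of the 9 had an unadjusted p under 0.05, beside 7.91% of all genes. Adjusted p ran from 0.623 to 0.896 in edgeR's quasi-likelihood test. Csf1r had 92.6, 91.3 and 92.9 CPM in mVEGF-C+mIgG, against 85.6, 89.2 and 87.8 CPM in eGFP+mIgG, a log2 difference of 0.08. P2ry12 had 49.3, 49.7 and 53.4 CPM in mVEGF-C+mIgG, against 44.5, 49.2 and 48.8 CPM in eGFP+mIgG, a log2 difference of 0.10. Both stood higher in every mVEGF-C+mIgG mouse, as did Gpr34, Olfml3, P2ry13 and Tmem119, so 6 of 9 genes did not overlap, beside 6.38% of all genes. Olfml3 differed by 0.14 (SE 0.0628) and Tmem119 by 0.17. In the fit that left out mice 3, 6, 9 and 12, again 6 of the 9 were higher without overlap, beside 12.6% of all genes.

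Whether the antibody acted differently under the 2 vectors was tested as an interaction, the mAdu difference under mVEGF-C minus that under eGFP. All 9 interaction values were below 0, with a median of -0.25, where 48.3% of all genes were below 0. None passed, where 0.00672% of all genes passed in each direction, and 6 of the 9 had an unadjusted p under 0.05, beside 6.82% of all genes. Olfml3 had an interaction of -0.49 (SE 0.0895, 95% interval -0.68 to -0.30), with an unadjusted p of 5.62e-05 and an adjusted p of 0.161 in edgeR's quasi-likelihood test. It passed with mouse 7 left out, at an adjusted p of 0.0414, and with the DESeq2 Wald test, at 0.0187, and in no other of the 16 alternative fits. Tmem119 had the widest value, -0.55 (SE 0.144), with an adjusted p of 0.444 in edgeR's quasi-likelihood test, and -0.43 without mouse 5. Selplg had -0.30, and -0.17 without mouse 5. P2ry13 had -0.25, Gpr34 -0.25, Cx3cr1 -0.20, Csf1r -0.14 and P2ry12 -0.10, while Siglech had -0.03. Without mice 3, 6, 9 and 12 the interaction was -0.45 for Olfml3, -0.67 for Tmem119 and -0.08 for P2ry13. All 9 values stayed below 0 there, with a median of -0.19.

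The combined treatment set mVEGF-C+mAdu against eGFP+mIgG and shares its libraries with the comparisons above. It had the most calls over all genes, with 0.988% called lower and 1.19% higher, and none of the 9 genes was among them, while 3 of the 9 had an unadjusted p under 0.05, beside 20.4% of all genes. Olfml3 averaged 20.3 ± 1.09 CPM in mVEGF-C+mAdu and 23.8 ± 1.59 CPM in eGFP+mIgG (SD, n = 3 each), a log2 difference of -0.23 (SE 0.0644) with an adjusted p of 0.0652 in edgeR's quasi-likelihood test. Cx3cr1 had 65.1, 63.9 and 65.7 CPM in mVEGF-C+mAdu, against 72.0, 71.9 and 71.9 CPM in eGFP+mIgG, a log2 difference of -0.15 (SE 0.0459) with an adjusted p of 0.0899 in that test by edgeR. Cx3cr1 was thus lower in each mVEGF-C+mAdu mouse. Its eGFP+mIgG values lay closer together (SD 0.0501 CPM) than the 2.34% spread from counting reads alone. Their closeness therefore does not show that the mice were alike. Csf1r, Cx3cr1, Olfml3 and Selplg did not overlap, 4 of 9 beside 13.4% of all genes. P2ry12 stood the other way, at 0.07, and Gpr34 averaged 18.2 ± 0.445 CPM in mVEGF-C+mAdu and 18.3 ± 0.168 CPM in eGFP+mIgG. Of the 9 differences 8 were below 0, beside 51.1% of all genes, with a median of -0.11. With mice 3, 6, 9 and 12 left out, 5 of the 9 were lower without overlap, beside 21.4% of all genes.

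Other gene lists named for microglia were set beside the 9 in the comparison of mVEGF-C+mAdu with mVEGF-C+mIgG. Not all their genes are limited to microglia, and RNA of a whole tissue does not tell which cells gave the reads. Among the transcription factors, Mef2c had 177 to 417 CPM and Spi1 had 1.85 to 3.25 CPM. Sparc of the other homeostatic genes had 123 to 144 CPM, and Apoe of the disease-associated genes 1280 to 1540 CPM. The medians below are thus not levels of microglia alone. Another 20 homeostatic microglia genes had a median log2 difference of -0.08, with 6 above 0, 14 below and none past the threshold. In 7 microglial transcription factors the median was -0.17, again with none past the threshold. Genes of microglia and macrophages in any state, 16 in number, had a median of -0.42 with all 16 below 0. They are expressed in any state, but their level per cell need not be the same in each state. Of these C1qc fell by 0.53 (SE 0.084) and C1qa fell by 0.55 (SE 0.103) on the log2 scale, with adjusted p of 0.0228 and 0.0429 in edgeR's quasi-likelihood test, beside 0.141% of all genes called lower and 0.0672% higher. C1qc and C1qa both encode chains of complement C1q. Their differences were -0.53 and -0.54 without mice 3, 6, 9 and 12, but both calls were lost, at an adjusted p of 0.997 in edgeR's quasi-likelihood test. Disease-associated microglia genes, 18 of 22 measured, had a median of -0.28, with 3 above 0, 15 below and none past the threshold. With those 4 libraries left out the medians were -0.09 for the other homeostatic genes, -0.09 for the transcription factors, -0.43 for the any-state genes and -0.34 for the disease-associated genes. The median over all genes was between -0.004 and 0.004 in each of the 6 comparisons.

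**Figure D3:**
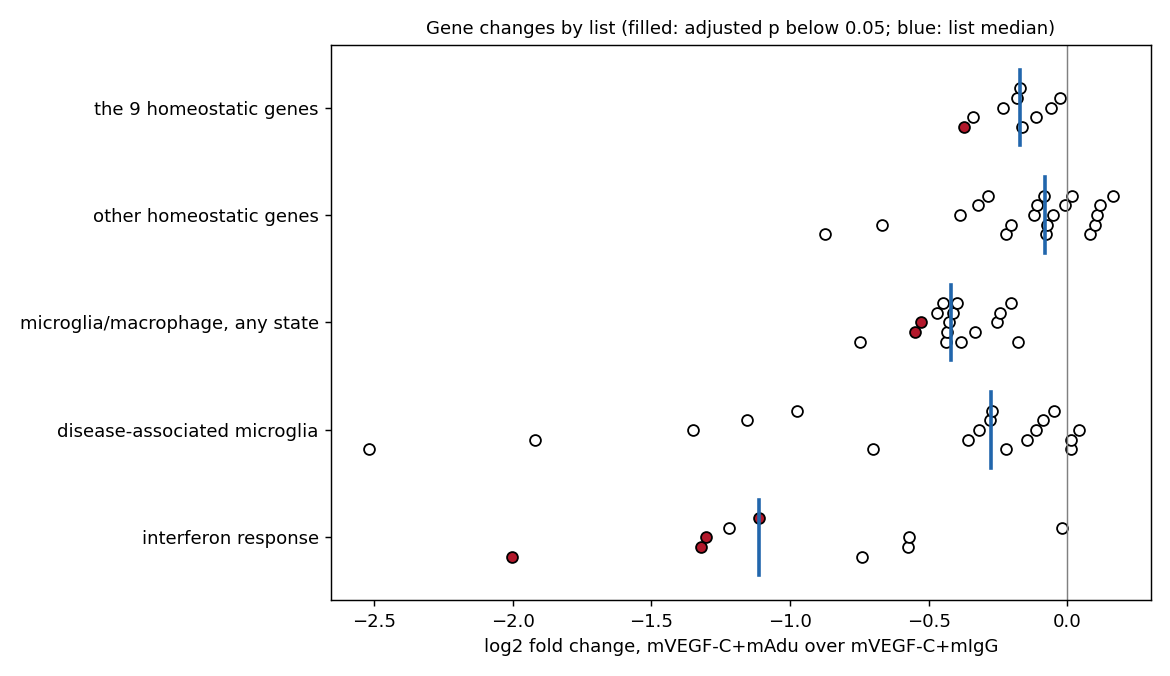
Log2 differences of mVEGF-C+mAdu over mVEGF-C+mIgG for single genes (points) of 5 lists, with the list's median as a line. The 9 genes have a median of -0.17 and the 16 genes of microglia and macrophages in any state one of -0.42.

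The plot of single genes by list shows these medians. The sum over the 16 any-state genes was 353 to 359 CPM in mVEGF-C+mAdu, 422 to 529 CPM in mVEGF-C+mIgG, 372 to 484 CPM in eGFP+mAdu and 407 to 472 CPM in eGFP+mIgG. The ratio of the 9-gene sum to that sum was 0.871, 0.842 and 0.871 in mVEGF-C+mAdu, 0.792, 0.654 and 0.727 in mVEGF-C+mIgG, 0.859, 0.738 and 0.808 in eGFP+mAdu and 0.787, 0.696 and 0.756 in eGFP+mIgG. All 3 mVEGF-C+mAdu ratios were above every mVEGF-C+mIgG and eGFP+mIgG ratio, and eGFP+mAdu overlapped them. Whether the 16 genes keep a constant level per cell was not tested, so the ratio is not a homeostatic level per microglial cell.

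In the other comparisons the 16 any-state genes had median log2 differences of -0.03 for eGFP+mAdu over eGFP+mIgG, 0.10 for mVEGF-C+mIgG over eGFP+mIgG and -0.29 for mVEGF-C+mAdu over eGFP+mAdu, with none past the threshold. For mVEGF-C+mAdu over eGFP+mIgG the median was -0.33 and 3 of 16 fell, the C1q chains C1qa (-0.43), C1qb (-0.44) and C1qc (-0.41), while none of the 9 homeostatic genes passed. In that comparison Lyz2, a lysozyme of myeloid cells, also fell (-1.06, SE 0.26), as 1 of 18 disease-associated genes, and Stab1, a scavenger receptor of border-associated macrophages, fell (-0.39, SE 0.0901), as 1 of 4. Other genes that fell there were Ifitm3 (-0.64) of the interferon list, Tagln (-1.09), a smooth muscle protein, and Ttr (-1.62), the transthyretin of choroid plexus. Ttr also fell in mVEGF-C+mAdu relative to eGFP+mAdu (-1.76, SE 0.244). All these calls are from edgeR's quasi-likelihood test, adjusted over all genes, where 0.988% of all genes were called lower in the combined comparison. All of them were lost without mice 3, 6, 9 and 12, at adjusted p of 0.56 and, for Ttr relative to eGFP+mAdu, 0.876, with log2 differences from -1.72 for that Ttr comparison to -0.41 for C1qb. The other 20 homeostatic genes had medians of 0.04 for eGFP+mAdu over eGFP+mIgG, -0.08 for mVEGF-C+mAdu over eGFP+mAdu and -0.07 for mVEGF-C+mAdu over eGFP+mIgG, with none past the threshold.

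Interferon and choroid plexus lists were also lower in the mVEGF-C+mAdu libraries. Interferon response genes, 9 of 10 measured, were all below 0 in mVEGF-C+mAdu over mVEGF-C+mIgG, with a median of -1.11. Of them 4 passed as lower (edgeR's quasi-likelihood test, adjusted), beside 0.141% of all genes called lower. The log2 differences were -1.11 for Ifit3, -2.00 for Usp18, -1.32 for Irf7 and -1.30 for Ifit1. Without mice 3, 6, 9 and 12 these differences were -1.09, -1.95, -1.01 and -1.40, and all 4 calls were lost, at an adjusted p of 0.997 in that test by edgeR. Usp18 and Irf7 were low, averaging 0.423 and 0.806 CPM in mVEGF-C+mAdu and 1.71 and 2.02 CPM in mVEGF-C+mIgG. For each of the 4, the mVEGF-C+mIgG mean lay above both eGFP groups and the mVEGF-C+mAdu mean below both. All 9 interferon genes summed to 31.0 to 33.5 CPM in mVEGF-C+mAdu, 38.9 to 45.0 CPM in eGFP+mAdu and 38.6 to 43.1 CPM in eGFP+mIgG. In mVEGF-C+mIgG the sum was 40.1 CPM in mouse 7, 62.0 CPM in mouse 8 and 52.3 CPM in mouse 9. Choroid plexus markers, 7 of 10 measured, had a median of -0.57 with all 7 below 0, and a median of -0.55 without those 4 libraries. They summed to 43.4 to 45.6 CPM in mVEGF-C+mAdu, 52.2 to 58.5 CPM in mVEGF-C+mIgG, 75.6 to 92.1 CPM in eGFP+mAdu and 60.2 to 106 CPM in eGFP+mIgG. In mVEGF-C+mAdu over mVEGF-C+mIgG, fibroblast genes of the meninges and perivascular space had a median of -0.13 and border-associated macrophage genes 0.04. Mural and endothelial genes had -0.03 and hippocampal neuron genes -0.01. The fibroblast median was -0.37 for mVEGF-C+mIgG over eGFP+mIgG, -0.46 for mVEGF-C+mAdu over eGFP+mAdu and -0.52 for mVEGF-C+mAdu over eGFP+mIgG. All 8 fibroblast genes were below 0 in each of those. The border-associated macrophage median was -0.66, -0.20 and -0.62 in that order, with all 4 below 0. For eGFP+mAdu over eGFP+mIgG the fibroblast and macrophage medians were -0.13 and -0.39. The part of interferon, choroid plexus, fibroblast or border-associated macrophage RNA in the differences of the 9 genes was not tested.

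**Figure D4:**
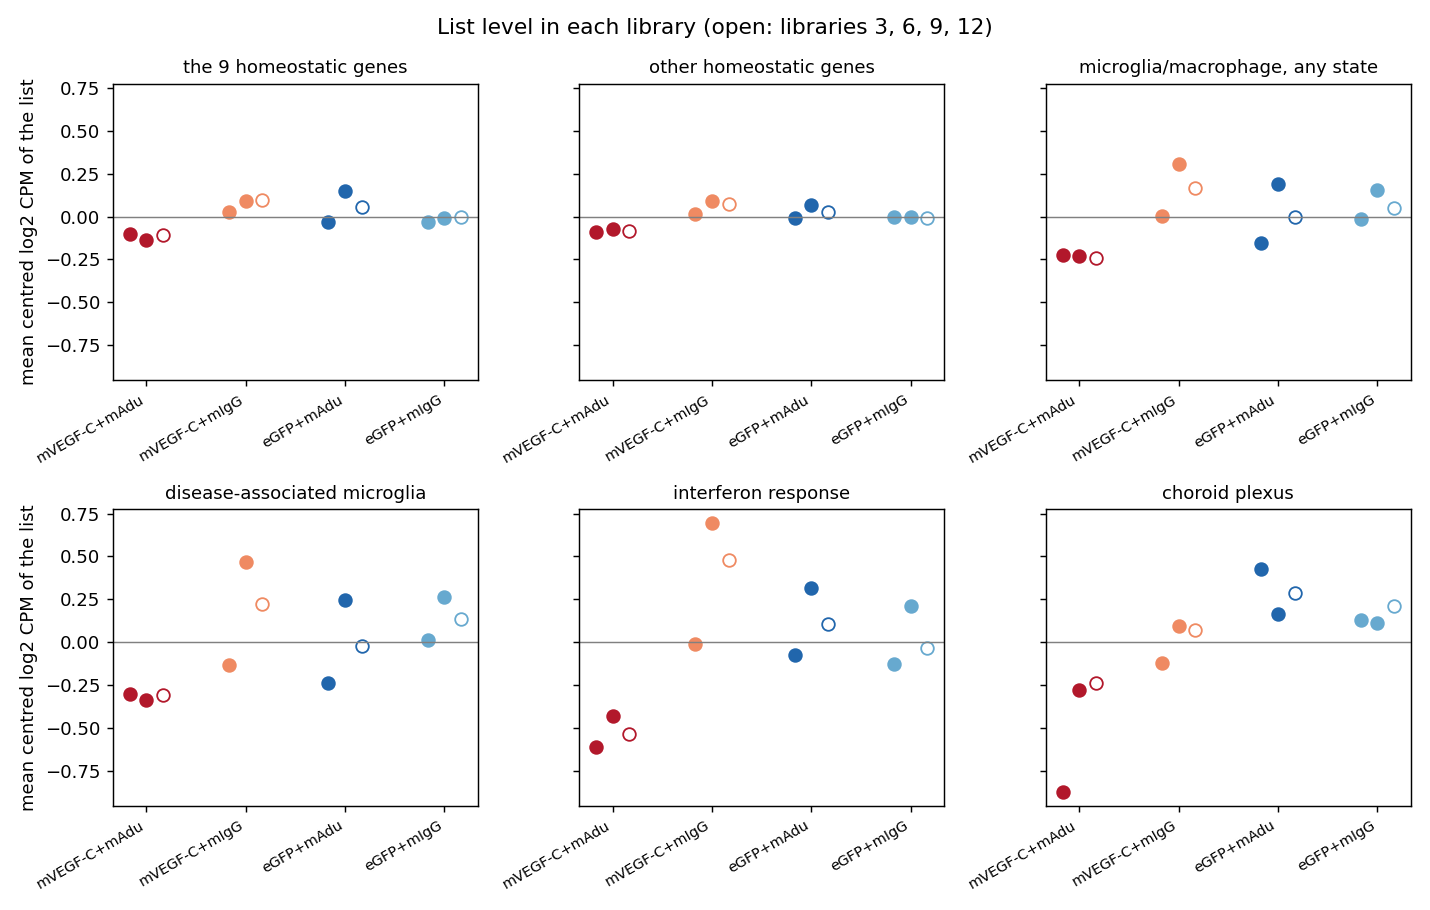
Level of 6 gene lists in each library as the mean of log2 CPM over the list's genes, after subtracting the gene's own mean, for the groups mVEGF-C+mAdu, mVEGF-C+mIgG, eGFP+mAdu and eGFP+mIgG from left to right. The 9 genes lie at -0.135 to -0.104 in mVEGF-C+mAdu and at 0.027 to 0.095 in mVEGF-C+mIgG, a narrower range than the interferon list, which lies at -0.608 to -0.428 and at -0.011 to 0.696.

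In the plot of list levels, the any-state and disease-associated lists lay at -0.241 to -0.225 and -0.336 to -0.303 in mVEGF-C+mAdu, against 0.004 to 0.308 and -0.132 to 0.465 in mVEGF-C+mIgG.

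Ligands of these receptors and genes of transforming growth factor beta, which maintains the homeostatic programme through receptors outside the 9, were measured for 5 of 6 listed genes (Selp is not analysed here). Cx3cl1, the fractalkine ligand of Cx3cr1, had 393 to 422 CPM over the 12 libraries. The CSF1 receptor ligands Il34 and Csf1 had 29.0 to 35.1 CPM and 23.1 to 33.1 CPM. Transforming growth factor beta itself, Tgfb1, had 1.03 to 1.99 CPM, and Nrros, which holds latent transforming growth factor beta on microglia, had 4.38 to 7.26 CPM. Among the 5 genes and 6 comparisons, Nrros alone passed, and it fell by 0.49 on the log2 scale (SE 0.122) in mVEGF-C+mAdu relative to eGFP+mIgG, with an adjusted p of 0.0482 in edgeR's quasi-likelihood test. Nrros differed by -0.57 without mice 3, 6, 9 and 12, and the call was lost, at an adjusted p of 0.56 in edgeR's quasi-likelihood test. Csf1 differed by -0.24 (SE 0.0843) between mVEGF-C+mAdu and mVEGF-C+mIgG, with an adjusted p of 0.245 in edgeR's quasi-likelihood test.

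Correlations among the 9 genes are given as a description over 12 libraries, whose values share group and RNA. Pearson's r of log2 CPM was above 0 for 35 of 36 pairs, from -0.01 to 0.85 with a median of 0.55, and without mice 3, 6, 9 and 12 it ran from 0.02 to 0.97 with a median of 0.64. Cx3cr1 with Olfml3 (0.85), Tmem119 with Gpr34 (0.80) and Tmem119 with Cx3cr1 (0.79) were the closest pairs. P2ry13 with Siglech (-0.01) and P2ry12 with Siglech (0.03) were the loosest. The order depended on the libraries, since without mice 3, 6, 9 and 12 the closest pair was Cx3cr1 with Siglech (0.97, against 0.62 in 12 libraries) and the loosest P2ry13 with Tmem119 (0.02), while P2ry13 with Siglech had 0.37. The neighbours P2ry12 and P2ry13 had an r of 0.19. Among the other genes whose log2 CPM correlated best with the mean of the 9 over 12 libraries were Vsir (0.93), Parp9 (0.91), Irf7 (0.90) and Lgals3bp (0.90). Vsir is an immune checkpoint protein of myeloid cells, and Parp9 and Irf7 are interferon-induced. Over the 8 libraries left without mice 3, 6, 9 and 12 their r was 0.91, 0.94, 0.92 and 0.91 in the same order.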

How the data were processed

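Per the file headers, the deposited table gives raw read counts per gene for 12 libraries, with no normalization by the authors. Per the labels, RNA was extracted with the PicoPure kit and linearly amplified. FastQC, Trim Galore, STAR, Subread, featureCounts, edgeR and build mm10 are named in the submitters' processing notes. The sources used here give neither their versions nor the counting strand.

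Symbols came from GENCODE M21, which named 14797 of 14881 identifiers. edgeR 4.0.16 (R 4.3.3) fitted all 12 libraries with TMM scaling and 1 mean per group, and filterByExpr removed 0 genes. The 6 contrasts were tested two-sided with the quasi-likelihood test and Benjamini-Hochberg adjustment over all genes, at a threshold of 0.05. The common biological coefficient of variation was 5.16%. The fit was tested on simulated counts for the combined comparison only. Those counts were drawn independently for each library, so the doubt over independence was not tested. Each library is described as 1 mouse. Since 1 library per group lay mostly between its partners, independence is in doubt, and p-values measure only the spread between these libraries. The members and all lists were chosen with earlier results of these data known. The named genes were the 9, list members that passed (up to 4 a list), overlapping genes, the ligands and the 5 best correlated genes, of which 1 is not reported here. App, Mrc1, Cd163, S100a9, Mef2c, Spi1, Sparc, Apoe and ENSMUSG00000045999 lie outside that rule, chosen once their values had been seen. Alternatives were DESeq2 size factors, no filter, the DESeq2 1.42.0 Wald test, only the groups compared, leaving out mice 3, 6, 9 and 12, and each library left out.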

Additional observations from a re-analysis of the deposited data

How the results depend on the processing

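No paired analysis was possible because the labels number the mice 1 to 12 through the groups and no number is shared. Over all genes, the main counts of calls were 5 for mAdu under eGFP, 31 for mAdu under mVEGF-C, 6 for mVEGF-C with mIgG, 7 for mVEGF-C with mAdu, 324 for the combined treatment and 2 for the interaction. Leaving out 1 library gave ranges of 4 to 35, 2 to 138, 1 to 52, 0 to 110, 12 to 594 and 0 to 36 in that order. The DESeq2 Wald test gave 47, 126, 20, 119 and 8 for the first 4 and the interaction. Fits of only the groups compared gave 6 for mAdu under mVEGF-C, 2 for mVEGF-C with mIgG, 62 for mVEGF-C with mAdu and 610 for the combined treatment. Without mice 3, 6, 9 and 12 the counts were 2, 0, 2, 0, 2 and 0, with 8 libraries in the fit. The cause of these shifts was not tested.

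Of the 9 genes, 1 passed for mAdu under mVEGF-C, and 0 elsewhere. With DESeq2 it was 2 there (Olfml3, and Csf1r at -0.16), 2 for mVEGF-C with mAdu (Olfml3 and Tmem119) and 1 for the interaction (Olfml3). With only the groups compared it was 0 for mAdu under mVEGF-C, 1 for mVEGF-C with mAdu and 1 for the combined treatment (Cx3cr1), and without mice 3, 6, 9 and 12 it was 0. With 1 library left out it was 0 to 2 for mAdu under mVEGF-C, and 0 to 1 for mVEGF-C with mAdu, the combined treatment and the interaction. Olfml3 passed for mAdu under mVEGF-C in 9 of 17 alternatives, with adjusted p from 0.00198 (DESeq2) to 0.997 (edgeR), and log2 differences from -0.42 to -0.32. The 9 include the fit with no filter, which repeats the main fit because filterByExpr removed 0 genes, so that pass adds nothing.

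The largest main difference whose sign turned was 0.13, for Selplg with mAdu under eGFP, which gave -0.0035 without mouse 5. The others whose sign turned were smaller. Without mice 3, 6, 9 and 12, P2ry13 under eGFP was -0.07, P2ry12 under mVEGF-C 0.001 and Siglech for mVEGF-C with mIgG 0.0035. With 1 library left out, the mAdu difference under eGFP ran from -0.05 to 0.07 for P2ry13, -0.03 to 0.06 for Cx3cr1, -0.0035 to 0.2 for Selplg and -0.07 to 0.02 for Siglech. P2ry12 ran from -0.05 to 0.01 for mAdu under mVEGF-C and from -0.03 to 0.03 for mVEGF-C with mAdu. Selplg ran from -0.01 to 0.14 for mVEGF-C with mIgG, Gpr34 from -0.02 to 0.01 for the combined treatment and Siglech from -0.09 to 0.01 for the interaction. With 3 mice a group and 291 to 2550 reads per gene and library, counting error alone is 2.11% to 5.22% over the 9 genes.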
